A study of Homo sapiens with 6 samples.

Results

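The 10 genes described here mark the epithelial and the mesenchymal state of a carcinoma cell, and they were taken by symbol from a table of 28495 genes. The mesenchymal side held vimentin (VIM), N-cadherin (CDH2), the receptor tyrosine kinase AXL and the transcriptional repressors ZEB1 and SNAI2. The epithelial side held the simple keratins KRT8 and KRT18, the zonula occludens scaffolds TJP1 and TJP3, and plakoglobin (JUP). All 10 symbols had a row in the table, and 9 passed the filter for testing, a mean of at least 0.5 FPKM (reads scaled by gene length and by sequencing depth) over all libraries. SNAI2 did not.

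RNA was sequenced from NCI-H1299, an established human line that the labels call lung adenocarcinoma. A group of 3 libraries came from cells with complement factor B (CFB) silenced, called sh-CFB, and the other 3 from controls, called sh-NC. No other allele, drug or time is given. The question the labels state is what CFB deficiency does to this line at the transcript level. Column names in the table are of the siRNA kind while the titles name hairpins, and no label says whether the libraries came from separate cultures, so each p-value rests on the spread among libraries alone, and that spread may be technical.

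Epithelial cells hold together through tight junctions, adherens junctions and desmosomes, and keratin filaments anchor in the desmosomes. In an epithelial to mesenchymal transition (EMT) the repressors of the SNAI, ZEB and TWIST families bind E-box motifs in the promoters of junction genes and silence them, E-cadherin (CDH1) first among them. Vimentin then replaces or joins the keratins, and N-cadherin takes the place of E-cadherin. Many carcinoma lines hold a mixture of both programs, and AXL is often high in those on the mesenchymal side.

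Library depth lay between 26.2 and 40.0 M reads, recovered from the steps of the FPKM values. CFB itself could not serve as a check of the groups. It had 0, 0 and 2 reads in the sh-CFB libraries and 1, 6 and 5 in the sh-NC libraries, an FPKM of at most 0.0321, where 3 reads correspond to 0.0158 to 0.0242. It shares 2249 of its 4997 exon bases with a gene on the same strand (AL645922.1), so its value can also be too low. The libraries stood apart along GC content: Spearman's correlation between a library's deviation and the GC content of genes was 0.60, -0.10 and -0.16 in sh-CFB replicates 1 to 3 and -0.55, -0.25 and 0.23 in sh-NC replicates 1 to 3. Results that move with this order are given with it, and also after a spline on GC content and length was removed from each library.

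Of the scaffolds TJP3 and TJP1, which belong to the same family, only TJP3 passed the test between groups. VIM and AXL were the highest of the set. Sequences upstream of a transcription start are shown for these 4 genes, on which the description turns. They come from RefSeq on GRCh38.p14, 5′ to 3′, and each begins 250 bases before a RefSeq start and stops before any exon that GENCODE annotates for the gene. The stretches of TJP3 (130 bases) and AXL (230) thus lack the bases nearest that start, and that of TJP3 lies inside the annotated gene. Capitals mark the E-box CACCTG (or CAGGTG) and the GC box GGGCGG (or CCGCCC).
TJP3 chr19:3721487-3721616 (+): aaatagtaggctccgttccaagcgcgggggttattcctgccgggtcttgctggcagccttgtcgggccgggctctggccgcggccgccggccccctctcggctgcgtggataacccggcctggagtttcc
TJP1 chr15:29969050-29969299 (-): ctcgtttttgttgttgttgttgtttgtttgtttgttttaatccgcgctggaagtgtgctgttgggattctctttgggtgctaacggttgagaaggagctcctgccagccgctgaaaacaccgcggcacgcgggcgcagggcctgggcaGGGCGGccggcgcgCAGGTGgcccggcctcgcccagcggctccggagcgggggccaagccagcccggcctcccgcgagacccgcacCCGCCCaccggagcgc
VIM chr10:17227991-17228240 (+): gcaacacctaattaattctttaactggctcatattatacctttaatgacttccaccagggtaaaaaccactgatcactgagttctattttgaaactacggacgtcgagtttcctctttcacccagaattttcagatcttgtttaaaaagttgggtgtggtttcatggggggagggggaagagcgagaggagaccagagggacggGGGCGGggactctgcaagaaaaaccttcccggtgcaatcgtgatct
AXL chr19:41218973-41219202 (+): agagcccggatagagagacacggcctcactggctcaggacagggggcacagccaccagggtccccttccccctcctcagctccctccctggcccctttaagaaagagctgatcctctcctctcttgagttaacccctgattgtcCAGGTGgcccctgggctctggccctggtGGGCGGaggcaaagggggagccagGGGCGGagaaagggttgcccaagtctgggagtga

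The TJP1 and AXL stretches each held 1 E-box and 2 GC boxes, VIM held 1 GC box, and the 130 bases of TJP3 held neither. Of 35116 RefSeq promoters, 17.5% had an E-box and 42.6% a GC box within the same 250 bases, and 10.1% and 22.4% within the first 130. Within the first 230, the length shown for AXL, the shares were 16.4% and 40.0%. RefSeq promoters were matched for 8 of the 10 genes, with 21 starts. Of those 21 windows of 250 bases, 6 held an E-box, 14 a GC box and 0 the AP-1 site TGACTCA (or TGAGTCA), which 4.203% of all promoters held. ZEB1 alone gave 7 of these windows, 2 with an E-box and 5 with a GC box, so the windows are not spread evenly over the genes. Both TJP3 windows held a GC box and 1 an E-box when all 250 bases were read, so the motifs lie outside the stretch shown. Motifs were searched as exact letters on both strands, and a match describes the letters only.

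The abundant transcripts of the set came from both sides, VIM and AXL from the mesenchymal and KRT18 and KRT8 from the epithelial side. VIM was the highest of the set at a mean of 421.1 FPKM over the 6 libraries, above 99.6% of the genes in the table. AXL followed at 220.7 FPKM (percentile 99.3), KRT18 at 167.9 (99.0) and KRT8 at 44.2 (96.4). The junction scaffolds lay far below, with JUP at 5.07 FPKM, TJP1 at 4.18 and TJP3 at 3.16, and the mesenchymal ZEB1 at 2.22 and CDH2 at 2.01 stood lower still. SNAI2 ended the order at a mean of 0.0026 FPKM.

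Several neighbours in that order could not be separated. The ranges over the 6 libraries did not overlap between VIM and AXL, KRT18 and KRT8, KRT8 and JUP, or CDH2 and SNAI2. They overlapped between AXL and KRT18, where AXL was higher in 5 of 6 libraries, and along the whole run from JUP through TJP1, TJP3 and ZEB1 to CDH2. The order also depends on the length used. On the length of the principal transcript instead of all exons, KRT18 (329.9) stood above AXL (239.2), KRT8 stood at 143.0 and VIM was again first at 1020.8 FPKM.

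Several genes that define an epithelial cell were near absent. E-cadherin (CDH1) had 2 reads in all, both in 1 sh-CFB library, and EPCAM, an epithelial adhesion molecule, had 12 reads in sh-CFB and 17 in sh-NC, at most 0.125 FPKM. ESRP1, the epithelial splicing factor, reached at most 0.0498 FPKM. Of 11 listed epithelial transcription and splicing factors in the table, 8 had a mean under 0.1 FPKM, and of 14 epithelial surface genes 8 did. KLF4, a Kruppel-like factor, was the highest of the former at 10.1 FPKM. On the mesenchymal side, TWIST1 was present at 5.03 to 6.71 FPKM and SNAI1 at 0.337 to 1.57, while ZEB2, the paralog of ZEB1, averaged 0.365 and fibronectin (FN1) 1.66. Of 15 genes of the mesenchymal list in the table, 0 had a mean under 0.1 FPKM and 1 was below the filter. Levels within that list differed widely. CD44 averaged 60.7 FPKM, while TAGLN averaged 0.732, ACTA2 0.622, TNC 0.554 and SPARC 0.467. GRHL2 and CDH11 were not analysed here.

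**Figure D1:**
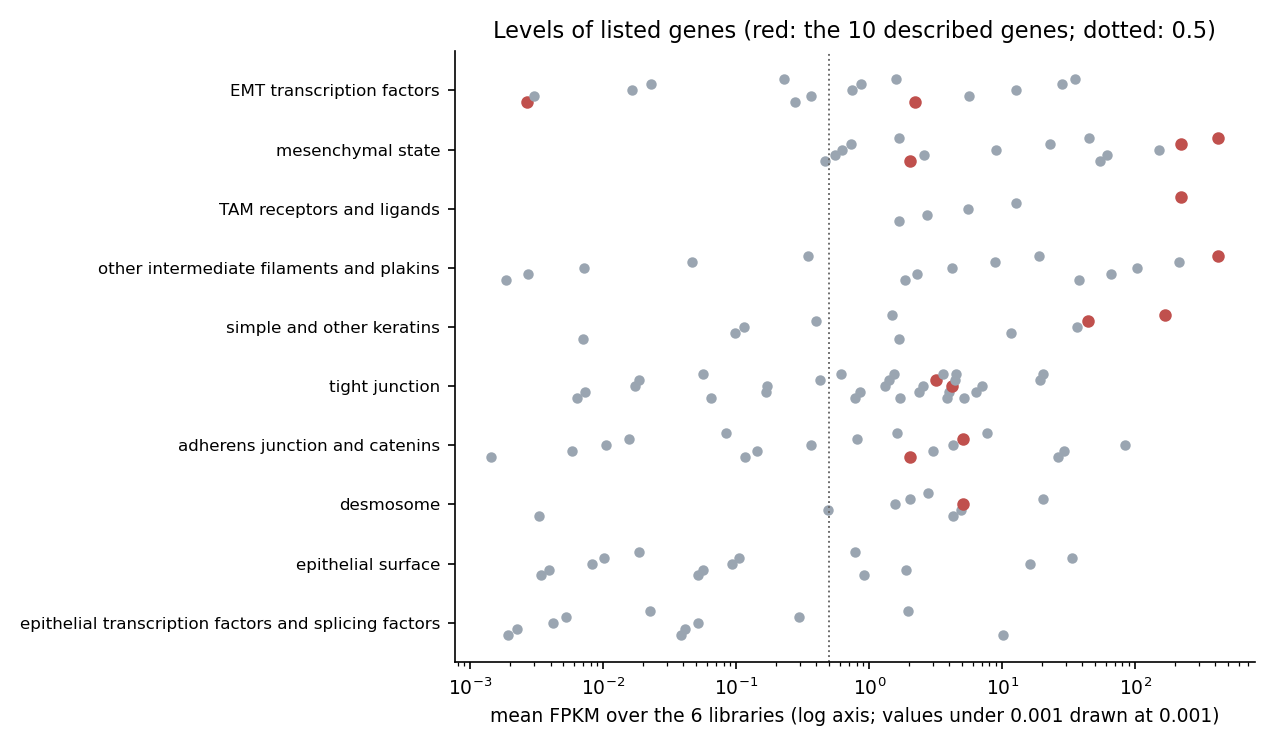
Mean FPKM over the 6 libraries (horizontal log axis) for each gene of 10 lists, a row per list, with the 10 described genes in red and a dotted line at 0.5 FPKM, the filter. VIM and AXL stand at the right end with 421.1 and 220.7 FPKM, SNAI2 at the left end, and most epithelial factors and surface genes fall left of the dotted line.

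Markers of other cell types were near absent. Summed over 6 fibroblast markers in the table the level was 0.245 to 0.322 FPKM in sh-CFB and 0.263 to 0.333 in sh-NC, with 0 of them past the filter, and over 6 endothelial markers 0.0717 to 0.199 and 0.135 to 0.225. The 6 immune markers summed to at most 0.131 in either group, and the 4 smooth muscle markers to 0.202 to 0.513 and 0.265 to 0.379. Lung markers were low as well: the 9 in the table summed to 1.65 to 2.10 FPKM in sh-CFB and 2.32 to 3.23 in sh-NC. NKX2-1, the lineage factor of lung adenocarcinoma, lay between 0.120 and 0.339 FPKM, and the surfactant genes SFTPA1, SFTPB, SFTPC and SFTPD stayed at or under 0.0244. Of the 9, 2 other genes passed the filter, and the highest value of the list was 1.34 FPKM. Both were lower in sh-CFB, with a median log2 difference of -0.41, and limma called 0 of them (1 lower at an unadjusted p under 0.05). The sums of the lung markers did not overlap between groups, and their part in the results was not tested.

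Between the groups, TJP3 was the only 1 of the 9 tested genes to pass the test as deposited. It was 2.10-fold higher in sh-CFB on the scale of FPKM + 0.5, which understates changes of low genes. With voom on recovered reads the log2 difference of TJP3 was 1.26, against 1.07 on this scale. JUP had the next largest difference, 1.44-fold higher on the same scale, with an adjusted p just over the threshold. The mesenchymal genes VIM, AXL, CDH2 and ZEB1 did not pass in either direction. The test was limma on log2(FPKM + 0.5) across 12466 genes with Benjamini-Hochberg adjustment at 0.05, which called 7.45% of genes, 1.74% higher and 5.71% lower in sh-CFB. The 9 genes thus gave 1 higher, 0 lower and 8 that did not pass, and 2 had an unadjusted p under 0.05. Their median log2 difference was 0.09, against -0.15 over all tested genes. After the GC and length correction the median over all genes was 0.01 and that over the 9 genes 0.35. The corrected fit called 10.8% of genes, 4.69% higher and 6.08% lower, and it called 2 of the 9 higher, TJP3 and JUP, with 0 lower and 4 at an unadjusted p under 0.05.

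**Figure D2:**
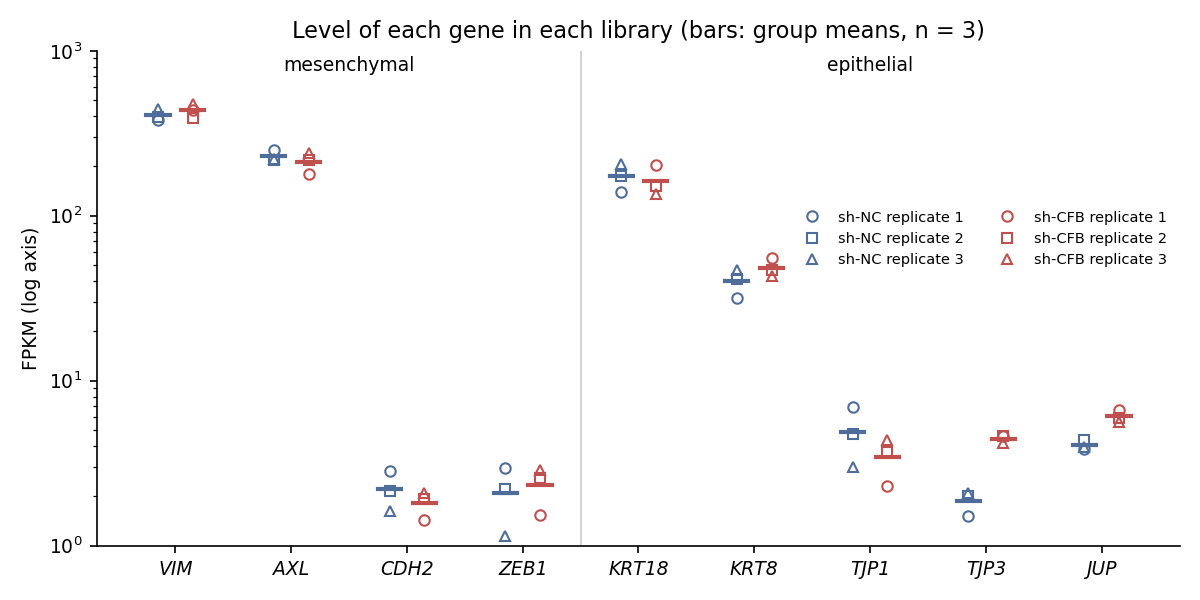
FPKM of each gene in each library on a log axis, blue for sh-NC and red for sh-CFB, with a symbol for each replicate number and a bar at the group mean (n = 3); SNAI2 is left out because it was at 0 in 5 libraries. The 3 sh-CFB values of TJP3 lie between 4.16 and 4.62 and the 3 sh-NC values between 1.51 and 2.10, while TJP1 spreads within each group.

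VIM encodes the intermediate filament of mesenchymal cells. It was measured at 435.4, 391.5 and 477.3 FPKM in sh-CFB replicates 1 to 3 and at 380.8, 395.2 and 446.1 in sh-NC. The groups overlapped, and the highest value of either group came from its replicate 3. The means were 434.8 ± 42.9 and 407.4 ± 34.3 FPKM (SD, n = 3), a log2 difference of 0.09 (95% interval -0.18 to 0.36, limma adjusted p = 0.668), which turned to -0.035 under quantile normalization. The corrected fit gave 0.39 with an adjusted p of 0.147. An antisense gene, VIM-AS1, shares 641 exon bases with VIM and had 0.532 to 1.02 FPKM.

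AXL, the receptor for GAS6, had 179.0, 218.0 and 239.0 FPKM in sh-CFB, against 249.7, 217.7 and 220.5 in sh-NC. The lowest value was that of sh-CFB replicate 1 and the highest that of sh-NC replicate 1, and the others overlapped. The difference was -0.12 (SE 0.13, limma adjusted p = 0.602), and it was 0.04 after correction and 0.08 with median-of-ratios factors. Its fellow receptors TYRO3 and MERTK (with AXL, the TAM family) and the ligands GAS6 and PROS1 were also tested, and of these 5 genes limma called 0 as deposited (1 at an unadjusted p under 0.05, and 0 with voom). GAS6 stood at 6.02 ± 0.476 FPKM in sh-CFB and 4.99 ± 0.644 in sh-NC (SD, n = 3, log2 difference 0.25, limma adjusted p = 0.293). After correction the ligand PROS1 passed, at a log2 difference of 0.39 and an adjusted p of 0.0435.

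CDH2 encodes the cadherin that mesenchymal and neural cells use for adhesion. Its FPKM values were low, 1.43, 1.93 and 2.07 in sh-CFB, against 2.85, 2.14 and 1.62 in sh-NC. The groups overlapped and the spread within sh-NC exceeded the difference of the means. That difference was -0.21 on the log2 scale (95% interval -0.71 to 0.28, limma adjusted p = 0.574) and 0.07 after correction. CDH1 reached at most 0.00857 FPKM in any library, so the cadherin pair was read from CDH2 alone.

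ZEB1, the zinc finger repressor of CDH1 and of the miR-200 genes, ranged over 1.53, 2.59 and 2.88 FPKM in sh-CFB, against 2.95, 2.19 and 1.151 in sh-NC. Both the highest and the lowest library were controls. The log2 difference was 0.16 (95% interval -0.56 to 0.87, limma adjusted p = 0.793), 0.35 after correction with an adjusted p of 0.125, and -0.14 to 0.39 over the fits that left out 1 library. SNAI2, which encodes Slug, was listed at 0 in 5 libraries and at 0.0159 FPKM in sh-CFB replicate 3, from 2 reads. In the sh-NC libraries a count of 0 allows up to 0.0228 to 0.0278 FPKM, a limit that covers counting error only. The groups could not be separated (exact permutation p = 1.0, two-sided, smallest possible 0.1), and no difference was detectable at this depth.

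Transcription factors of the same program did not pass either. Of 15 listed, 8 were tested, and limma called 0 as deposited and 0 after correction, 0 with voom on recovered reads, and 0 at an unadjusted p under 0.05. Their median log2 difference was 0.14. SNAI1 had 1.57, 0.808 and 0.626 FPKM in sh-CFB, against 0.476, 0.337 and 0.623 in sh-NC. The groups were barely apart, with sh-CFB replicate 1 far above the rest, and the limma adjusted p was 0.202 at a log2 difference of 0.58. TWIST1 had 5.84, 5.94 and 6.71 FPKM in sh-CFB, against 5.03, 5.12 and 5.18 in sh-NC, again without overlap, with a difference of 0.25 and an adjusted p of 0.233. Groups without overlap were common, at 33.7% of all tested genes. TCF3, the highest of the list at 34.9 FPKM, differed by -0.14 (adjusted p = 0.403), and by 0.06 with median-of-ratios factors.

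KRT8 and KRT18 encode the type II and type I keratins that pair into the filaments of simple epithelia. KRT18 had 202.6, 151.4 and 134.8 FPKM in sh-CFB, against 138.4, 173.3 and 207.1 in sh-NC. Either group covered nearly the same range. The log2 difference was -0.09 (95% interval -0.53 to 0.36, limma adjusted p = 0.811), 0.01 after correction and 0.12 with median-of-ratios factors. KRT8 had 55.2, 46.7 and 43.2 FPKM in sh-CFB, against 31.8, 41.4 and 46.6 in sh-NC. The highest library was sh-CFB replicate 1 and the lowest sh-NC replicate 1, and the rest overlapped. Its difference was 0.28 (95% interval -0.08 to 0.65, limma adjusted p = 0.304). It was 0.18 without sh-CFB replicate 1, 0.13 without sh-NC replicate 1, and 0.032 without both.

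The ratio of these partners was steadier than either gene. KRT18 over KRT8 was 3.67, 3.24 and 3.12 in sh-CFB, against 4.35, 4.18 and 4.44 in sh-NC, so the 3 sh-CFB values lay under the 3 controls without overlap. No test was run on ratios. The genes lie head to head on chromosome 12 and share 525 exon bases on opposite strands, and the strand setting of the counting is not given in the sources used here. Processed copies also exist: 15 KRT8 pseudogenes in the table carried 1.35% to 3.68% of the reads of KRT8 and its copies, and 26 KRT18 pseudogenes 0.183% to 0.357%. The part of these in the ratio was not tested.

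Of 10 keratins in the table, 6 were tested, KRT8 and KRT18 included, and limma called 0 (1 lower at an unadjusted p under 0.05, and 0 with voom). KRT7 averaged 1.47 FPKM and KRT19, common in glandular epithelium, 0.114. The list of other intermediate filaments and their linkers, which includes VIM, had 3 of 10 tested genes lower and 0 higher (1 higher at an unadjusted p under 0.05; 2 lower with voom), where 5.71% of all tested genes were lower and 1.74% higher. It had a median log2 difference of -0.15, close to that over all genes. These 3 were LMNB1 and LMNB2, lamins of the nuclear envelope, and INA, a neuronal filament. LMNB1 fell from 24.4 ± 2.32 to 13.2 ± 2.42 FPKM (SD, n = 3, log2 difference -0.88, limma adjusted p = 0.0194), LMNB2 from 119.0 ± 4.44 to 88.5 ± 0.617 (-0.42, adjusted p = 0.0261) and INA from 42.8 ± 1.23 to 32.7 ± 1.33 (-0.38, adjusted p = 0.0395). After correction both lamins passed and INA, at -0.13, had an adjusted p of 0.317. With no filter 0 of the 3 passed (adjusted p = 0.0650, 0.0512 and 0.0672 in that order). With median-of-ratios factors LMNB2 was at -0.22 (adjusted p = 0.473) and INA at -0.18 (adjusted p = 0.542), and INA was also lost with voom (0.0531) and quantile normalization (0.0536). Leaving out 1 library ended the call of LMNB1 without sh-CFB replicate 2, sh-NC replicate 1 or sh-NC replicate 2 (adjusted p = 0.0654, 0.0628 and 0.0879). It ended that of LMNB2 without any library but sh-NC replicate 3 (adjusted p up to 0.159), and that of INA without any library (adjusted p up to 0.175).

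TJP1 and TJP3 encode ZO-1 and ZO-3, which tie claudins and occludin to actin under the tight junction. TJP3 was measured at 4.597, 4.617 and 4.16 FPKM in sh-CFB, from 478, 611 and 634 reads, and at 1.51, 1.998 and 2.10 in sh-NC, from 236, 317 and 274. Every sh-CFB library stood above every control, with a gap wider than the spread in either group. The means were 4.46 ± 0.257 and 1.87 ± 0.315 FPKM (SD, n = 3). TJP3 rose by 1.07 on the log2 scale (SE 0.16, 95% interval 0.71 to 1.44, limma adjusted p = 0.0132). The rise was 0.98 after correction, with an adjusted p of 0.00630. The call was lost without sh-CFB replicate 2 (adjusted p = 0.0654) and without sh-NC replicate 2 (adjusted p = 0.0843). In bulk RNA, more cells with the transcript and more transcript per cell cannot be told apart.

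TJP1 was lower on average in sh-CFB, but within its spread. It had 2.29, 3.72 and 4.37 FPKM in sh-CFB, against 6.94, 4.75 and 2.98 in sh-NC. The lowest library was sh-CFB replicate 1 and the highest sh-NC replicate 1, and the remaining values overlapped. The log2 difference was -0.41 (95% interval -1.13 to 0.30, limma adjusted p = 0.442), -0.13 after correction, and 0.08 without the first library of both groups. Within a library, TJP3 over TJP1 was 2.004, 1.24 and 0.953 in sh-CFB, against 0.218, 0.421 and 0.703 in sh-NC, without overlap.

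JUP encodes plakoglobin, a catenin shared by desmosomes and adherens junctions. It had 6.68, 5.90 and 5.62 FPKM in sh-CFB, against 3.83, 4.398 and 3.97 in sh-NC. The groups did not overlap, as was true of 2 of the 9 tested genes, JUP and TJP3, and of 33.7% of all tested genes. The means were 6.07 ± 0.547 and 4.07 ± 0.294 FPKM (SD, n = 3), a log2 difference of 0.52 (SE 0.13, 95% interval 0.22 to 0.82, limma adjusted p = 0.0512). It passed in 4 of 19 other settings, the GC and length correction among them, where the difference was 0.45 and the adjusted p 0.0244. TJP3 over JUP was 0.688, 0.782 and 0.740 in sh-CFB, against 0.394, 0.454 and 0.528 in sh-NC, without overlap.

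**Figure D3:**
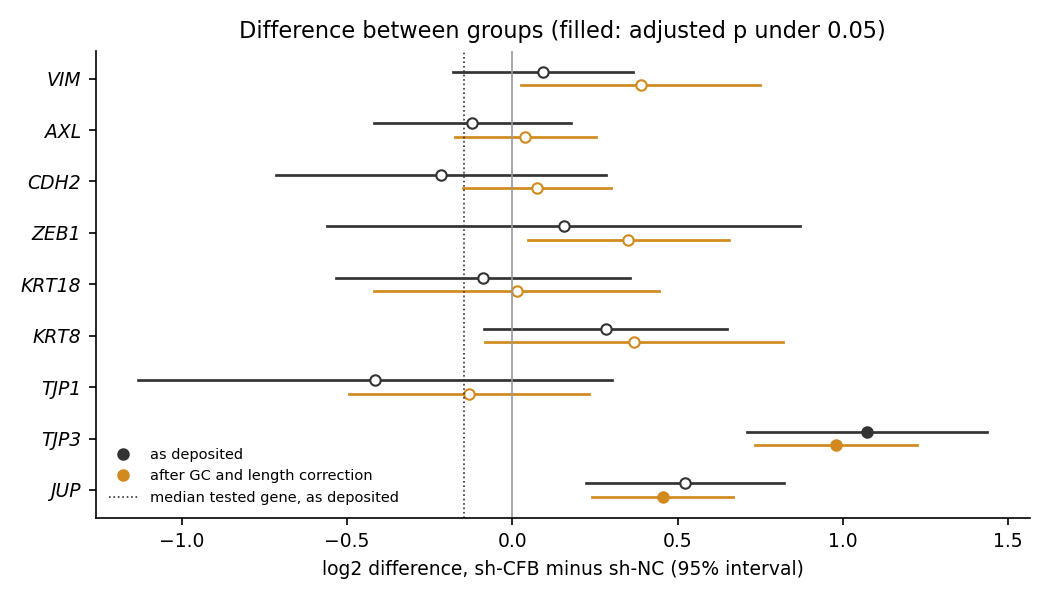
Log2 difference between groups (sh-CFB minus sh-NC) for the 9 tested genes, with 95% intervals, as deposited in black and after the GC and length correction in orange; filled points have an adjusted p under 0.05. TJP3 is filled in both fits at 1.07 and 0.98, JUP in the corrected fit at 0.45, and the dotted line marks the median gene at -0.15.

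The lists of junction genes are given by their counts, beside the 7.45% of all tested genes that passed. Of 31 tight junction genes listed, 21 were tested and TJP3 was the 1 that passed, with a median log2 difference of 0.03 over the list. At an unadjusted p under 0.05, 3 were higher and 1 lower, and voom called 1 higher and 0 lower. CLDN1, a claudin singled out after its values were seen, had 1.48, 2.09 and 2.91 FPKM in sh-CFB, against 7.27, 4.75 and 2.98 in sh-NC. Its difference of -1.01 did not pass (limma adjusted p = 0.0970), nor did -0.77 after correction (adjusted p = 0.0562). LLGL2 of the same list, singled out likewise, went the other way, at 0.60 (limma adjusted p = 0.0674). Of 10 tested adherens junction genes limma called 0 as deposited (4 at an unadjusted p under 0.05, 2 in each direction, and 0 with voom), with a median log2 difference of -0.21. After correction JUP was higher and beta-catenin (CTNNB1) lower among them. CTNNB1 had 3.65, 6.01 and 7.38 FPKM in sh-CFB, against 11.5, 8.94 and 8.21 in sh-NC, a log2 difference of -0.74 (adjusted p = 0.109) that became -0.47 after correction (adjusted p = 0.0474), the 1 setting of 19 in which it passed. Without sh-CFB replicate 1 the difference as deposited was -0.47, without the first library of both groups it was -0.34, and with the correction as well -0.38 (adjusted p = 0.111), so that its call ended there. NECTIN2, the highest gene of that list at 84.1 FPKM, differed by 0.27 (adjusted p = 0.126).

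In the desmosome list 7 of 13 genes were tested, and limma called 0 as deposited (1 at an unadjusted p under 0.05, and 0 with voom), with a median log2 difference of -0.11. Desmoplakin (DSP), which links desmosomes to keratin, averaged 1.91 ± 0.448 FPKM in sh-CFB and 2.15 ± 0.726 in sh-NC (SD, n = 3, log2 difference -0.11, limma adjusted p = 0.814; 0.17 after correction). PERP, a desmosomal membrane protein and the highest of the list, averaged 20.1 FPKM over all libraries. Only 1 gap junction gene was tested, GJC1 at 14.1 FPKM, with a difference of -0.09 that was 0.17 after correction. Of 5 tested epithelial surface genes limma called 0 (1 at an unadjusted p under 0.05, and 0 with voom). LSR, a protein of tricellular junctions, was the highest of them at 33.3 FPKM and differed by 0.26 (adjusted p = 0.145).

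The mesenchymal list, with VIM, CDH2 and AXL in it, had 1 of 14 tested genes higher and 0 lower as deposited. That gene was S100A4, a calcium-binding protein linked to cell motility. It was measured at 12.2, 11.4 and 11.03 FPKM in sh-CFB, against 5.44, 7.31 and 6.80 in sh-NC, with no overlap. S100A4 rose by 0.79 on the log2 scale (SE 0.13, limma adjusted p = 0.0182), and by 0.79 after correction. The call was lost with no filter (adjusted p = 0.0505), with median-of-ratios factors (0.0554), without sh-CFB replicate 2 (0.0764) and without sh-NC replicate 2 (0.0843). The median of the list was -0.03 as deposited and 0.17 after correction, when 4 genes were higher, among them S100A4, the hyaluronan receptor CD44 (0.49) and the fibronectin receptor subunit ITGA5 (0.44). FN1 differed by -0.18 (adjusted p = 0.717), and by 0.04 after correction. All lists were chosen with earlier results of these data known, so their counts are descriptions.

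Over the libraries some of the 9 genes followed the GC order and others the groups. With libraries ordered from the highest to the lowest correlation with GC content (sh-CFB 1, sh-NC 3, sh-CFB 2, sh-CFB 3, sh-NC 2, sh-NC 1), TJP1 and CDH2 were higher at every step. So were 4.91% of all tested genes, while 0.810% were lower at every step. The longest annotated transcripts of TJP1 and CDH2 hold 44.8% and 45.0% G and C, against 49.3% in the median tested gene, while those of TJP3 and JUP hold 63.2% and 61.5%. After the correction the range over the 6 libraries shrank from 1.41 to 0.57 on the log2 scale for TJP1 and from 0.80 to 0.21 for CDH2. For ZEB1 it went from 1.06 to 0.68 and for AXL from 0.48 to 0.24.

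TJP3 kept most of its range, 1.35 before and 1.24 after, and JUP 0.73 and 0.60. For VIM the range grew from 0.33 to 0.85 and for KRT8 from 0.79 to 1.02, so the correction did not narrow every gene. Without the first library of both groups, the 2 with the most opposite GC correlations, TJP3 differed by 0.94 as deposited (limma adjusted p = 0.0203) and by 0.92 after correction (adjusted p = 0.0192). JUP then differed by 0.42 (adjusted p = 0.107) and by 0.38 after correction (adjusted p = 0.0802), which ended its call in the corrected fit. The part of GC content in the other differences was not tested.

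**Figure D4:**
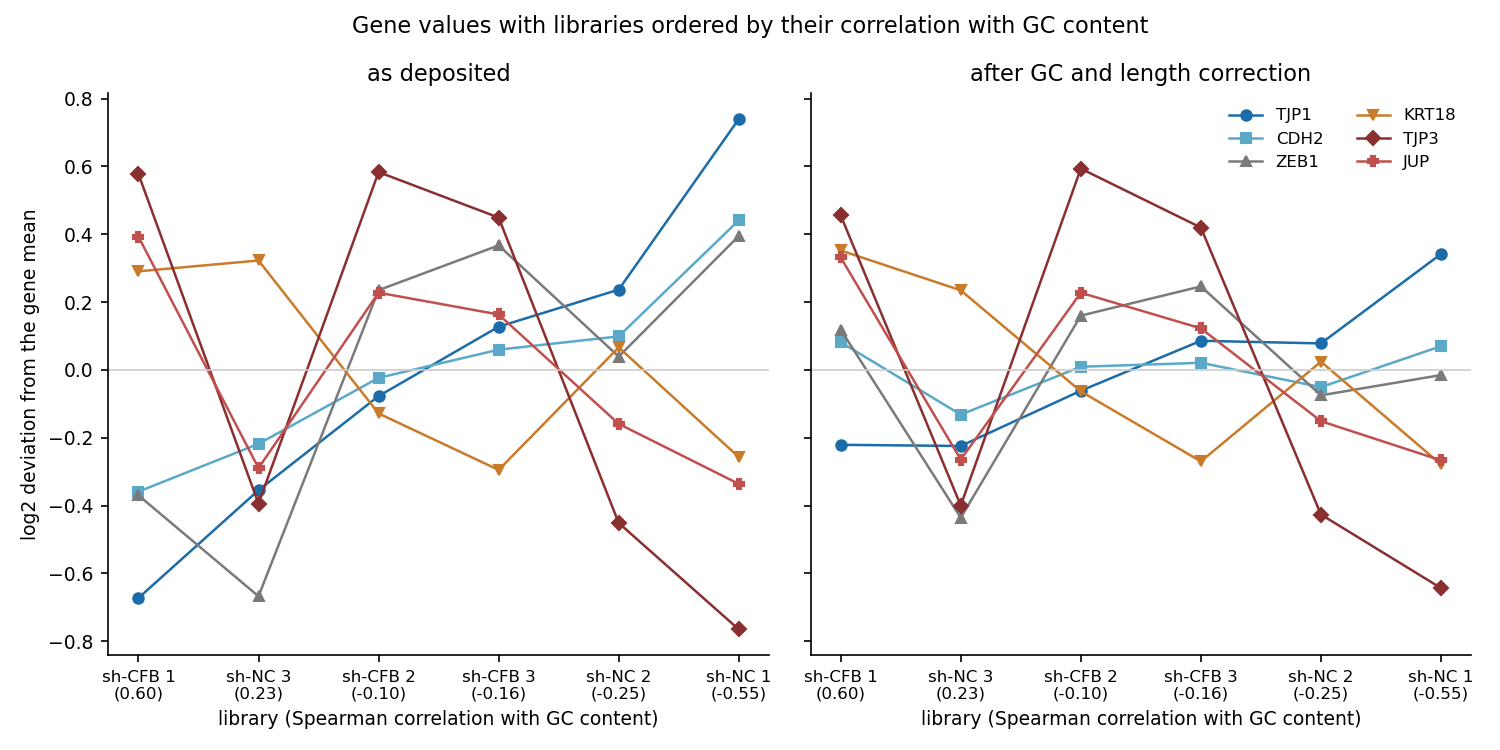
Log2 deviation of 6 genes from their own mean (vertical) in the 6 libraries, ordered from the highest to the lowest Spearman correlation with GC content (horizontal), as deposited at left and after the GC and length correction at right. TJP1 and CDH2 climb across the left panel. At right CDH2 flattens, while TJP1 still rises, from -0.22 in sh-CFB replicate 1 to 0.34 in sh-NC replicate 1. TJP3 and JUP stay above 0 in the 3 sh-CFB libraries and under 0 in the 3 sh-NC libraries in both panels.

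**Figure D5:**
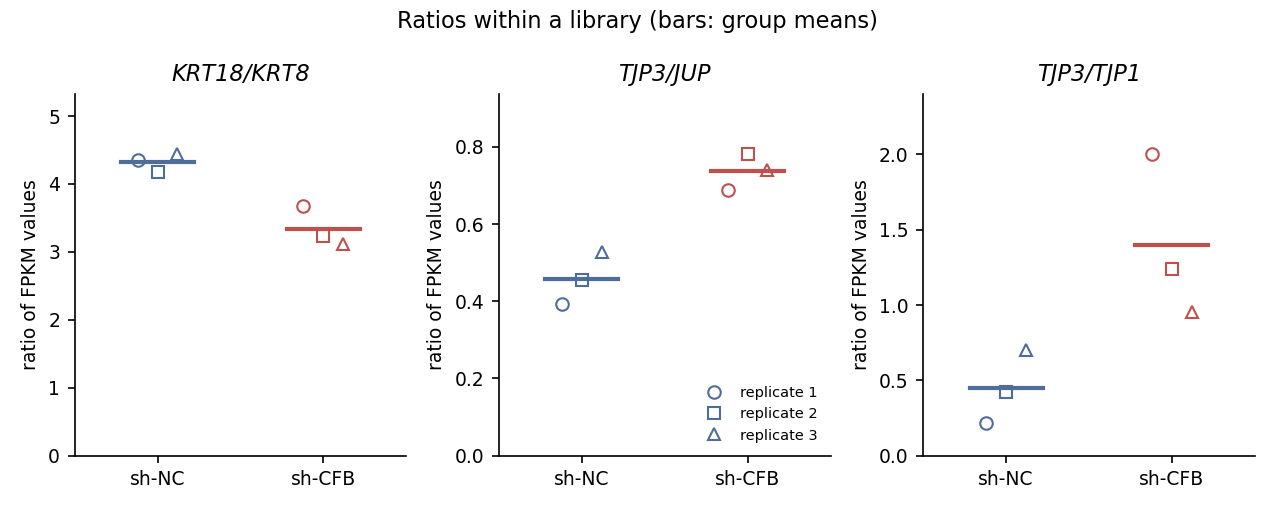
Ratio of 2 genes' FPKM within a library for KRT18 over KRT8, TJP3 over JUP and TJP3 over TJP1 (vertical axes from 0), with a point for each library and a bar at the group mean. In each panel the 3 sh-CFB libraries lie wholly to 1 side of the 3 sh-NC libraries, under them for KRT18 over KRT8 and above them for the other ratios.

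Ratios of VIM or AXL over a keratin gave no such separation. VIM over KRT18 ran from 2.15 to 3.54 in the 6 libraries and VIM over KRT8 from 7.89 to 11.96, and AXL over KRT8 from 3.24 to 7.85, with overlapping groups each time. VIM, AXL, KRT18 and KRT8 each overlapped between groups on their own. TJP3 did not, so its ratios over JUP and TJP1 are no separate result. The share of all gene pairs whose ratio separates the groups was not computed.

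The genes whose values over the 6 libraries were closest to those of TJP3, by the root mean square difference of centred log2 values, were DLG4 (0.0889), ZNF467 (0.102) and H1-2 (0.109). DLG4, known as a scaffold of synapses, had 15.9, 14.5 and 15.04 FPKM in sh-CFB, against 6.67, 7.52 and 8.43 in sh-NC. ZNF467 had 33.8, 27.7 and 30.4 against 12.8, 14.9 and 15.2, and H1-2, a linker histone, 152.3, 134.3 and 124.6 against 62.1, 71.8 and 83.8. All 3 were higher in every sh-CFB library than in any control, by 0.96, 1.07 and 0.92 on the log2 scale. They were picked for this likeness, so these values are a description.

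The positions are on GRCh38, from GENCODE 29, with the Ensembl identifier of each gene in the table. VIM (ENSG00000026025) lies at chr10:17228259-17237593 (+), ZEB1 (ENSG00000148516) at chr10:31318495-31529814 (+) and AXL (ENSG00000167601) at chr19:41219203-41261766 (+). TJP3 (ENSG00000105289) lies at chr19:3708109-3750813 (+), TJP1 (ENSG00000104067) at chr15:29699367-29968865 (-) and JUP (ENSG00000173801) at chr17:41754604-41786931 (-). KRT18 (ENSG00000111057) at chr12:52948871-52952901 (+) overlaps KRT8 (ENSG00000170421) at chr12:52897187-52949954 (-). CDH2 (ENSG00000170558) lies at chr18:27950966-28177446 (-) and SNAI2 (ENSG00000019549) at chr8:48917604-48921740 (-). TJP1, TJP3, JUP and SNAI2 share no exon bases with another annotated gene. ZEB1 shares 366 with ZEB1-AS1, CDH2 136 with AC110015.1 and AXL 67 with AC011510.1, each on the opposite strand.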

How the data were processed

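RNA-seq was analysed from 6 libraries of NCI-H1299, 3 labelled sh-CFB and 3 sh-NC. The deposited values are FPKM in a table of 28495 genes made by the authors; the submitters' processing notes name STAR 2.7.3a and featureCounts 2.0.1, the genome build GRCh38, and FastQC 0.11.9 and Trimmomatic 0.39. RNA came from TRIzol extraction and a stranded poly(A) library kit, per the labels. Of the strand setting, the annotation release and multiply mapped reads nothing is stated in those notes, so overlapping genes and copies are uncertain. All per-sample columns were used.

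From these values log2(FPKM + 0.5) was computed, and the 12466 genes that averaged 0.5 FPKM or more were compared with limma 3.58.1 (intensity trend) in R 4.3.3, with Benjamini-Hochberg adjustment over all of them at 0.05. The scale understates changes of low genes. SNAI2 was below the filter and was compared with a two-sided exact permutation test, which cannot go below 0.1 here. Reads were recovered from the FPKM steps (whole within 0.02 for 99.8% of genes; 87.7% of recovered lengths within 10% of the annotated exon length), giving 26.2, 33.4 and 38.4 M reads in sh-CFB and 39.4, 40.0 and 32.9 M in sh-NC. Limits from 3 reads cover counting error only. The GC and length correction removed a spline with 5 degrees of freedom on each from every library, for 12397 genes with GC content. GC content was that of the longest annotated transcript of a gene, while length was that recovered from the FPKM values. Coordinates came from GENCODE 29 and promoter sequences from RefSeq GRCh38.p14. The fit was tested on simulated counts drawn independently for each library and without a GC trend, so that test does not cover the GC order seen here. The correction was tested separately on a made GC trend. Scripts ran in Python 3.11.15 (scipy 1.17.1, pandas 2.3.3, numpy 2.4.6, matplotlib 3.10.9).

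The members and lists were chosen with earlier results of these data known. Named are the 10 members; per list up to 3 called genes with the largest absolute change, or the highest gene where none was called; 15 genes that mark the state of the line, of which some are not reported here; and the 3 genes closest to a called member. Genes called after correction only, and CLDN1, LLGL2, TAGLN, ACTA2, TNC and SPARC, were named after their values were seen. Tried as alternatives were 19 settings: pseudocounts of 0.1 and 1, a filter of 1 FPKM and none, 3 other scalings, the correction, a replicate block, voom on recovered reads, and left-out libraries.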

Additional observations from a re-analysis of the deposited data

How the results depend on the processing

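TJP3 kept its direction in all 19 settings (0.92 to 1.26 on the log2 scale, limma adjusted p 0.00630 to 0.175) and passed in 15, and JUP kept its direction (0.38 to 0.71, adjusted p 0.0244 to 0.308) and passed in 4. Of the 9 tested genes, 2 were higher with a pseudocount of 0.1, a filter of 1 FPKM, quantile normalization or the GC and length correction. Leaving out 1 library gave 0 to 1 genes higher, 0 without sh-CFB replicate 2 or sh-NC replicate 2. None was lower in any setting. Over all genes the count went from 929 to 324 with no filter (68 higher, 256 lower) and 206 with median-of-ratios factors, and to between 20 and 540 when 1 library was left out: 511, 39 and 400 without sh-CFB replicates 1 to 3, and 249, 20 and 540 without sh-NC replicates 1 to 3. Voom on recovered reads called 683. The split of higher and lower genes moved from 217 and 712 to 68 and 138 with median-of-ratios factors, 465 and 636 with quantile normalization, and 581 and 754 after the correction.

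With the replicate number as a block limma called 0 genes (1770 at an unadjusted p under 0.05), and 0 with the correction as well (2464 unadjusted), so 0 of the 9 genes, with 2 unadjusted in each fit. The adjusted p of TJP3 was then 0.175 and 0.0933. The correlations of deviations between same-numbered libraries were -0.54, 0.068 and -0.45. The libraries also stood apart along GC content, so these values cannot show whether the numbers pair the libraries. No label says that a number marks a shared culture.

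Genes that did not pass changed sign in some settings, and the cause was not tested. After the correction, with or without the block, CDH2 was at 0.075, AXL 0.040, KRT18 0.013, GJC1 0.17, FN1 0.041 and DSP 0.17. Without the first library of both groups CDH2 was at 0.078, AXL 0.059, TJP1 0.084, GJC1 0.23, FN1 0.22 and DSP 0.20. With the correction as well, a setting chosen after seeing the data, CDH2 was at 0.11, AXL 0.15, TJP1 0.085, GJC1 0.19, FN1 0.10, DSP 0.25 and KRT7 -0.018. Median-of-ratios factors gave AXL 0.085, KRT18 0.12, TCF3 0.063, GJC1 0.11 and DSP 0.049. Quantile normalization gave VIM -0.035, GJC1 0.055 and DSP 0.040, and equal totals gave PERP -0.046. Over the fits without 1 library, ZEB1 ran from -0.14 to 0.39, KRT18 from -0.26 to 0.051, KLF4 from -0.030 to 0.39, PERP from -0.10 to 0.15, GJC1 from -0.22 to 0.082, FN1 from -0.42 to 0.046 and DSP from -0.36 to 0.051. Depth limits SNAI2, for which 3 reads correspond to 0.0228 to 0.0349 FPKM.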
